A study of Mus musculus with 4 samples.

Results

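The genes described here encode 10 glycoproteins of the endothelial cell surface, the sialomucins Cd34, Emcn and Podxl, the C-type lectin domain proteins Clec14a and Cd93, the diaphragm protein Plvap, the small transmembrane protein Ecscr, and the scavenger and hyaluronan receptors Stab1, Stab2 and Lyve1. They were chosen by name, as probe sets whose platform annotation gives exactly 1 gene symbol, and each gene was read on the probe set with the highest mean over the 4 arrays. Earlier results of these data were known when members and lists were chosen. Counts set beside the share of all genes are therefore descriptions. All 10 were found, on 17 probe sets, among the 18193 genes of the array. Of the 10, 7 gave signal above background in both populations, against 67.8% of all genes, and 3 did not. Higher on both Etv2-Venus positive arrays than on both negative arrays were 5, Plvap, Ecscr, Cd34, Stab1 and Podxl, against 22.4% of all genes. Lower on both positive arrays were 3, Cd93, Stab2 and Clec14a, against 17.0% of all genes. Of these, Cd93 and, just above background, Stab2 gave signal in both populations. None of these differences passed the adjusted test, which called 0% of all genes in either direction.

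The arrays hold total RNA of Flk-1+ cells, 2 arrays of the Flk-1+/Etv2- and 2 of the Flk-1+/Etv2+ population. Both populations came from TT2 mouse embryonic stem cells that were heterozygous for a Venus reporter knocked into Etv2, so the control cells carry the reporter allele too. The cells were differentiated on OP9, a stromal line from mouse bone marrow, for 4 to 5 days per the design and 5 days per the labels, and sorted as Flk-1+ cells into Venus negative and Venus positive fractions. Flk-1 is the VEGF receptor encoded by Kdr, and Etv2 belongs to the ETS transcription factors and starts the blood and endothelial lineages. How many clones, cultures or sorts the arrays stand for is not given in the sources used here, so the p-values reflect no more than the spread among the 4 arrays, which may be technical.

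Surface glycoproteins come on in steps as a vessel cell matures. Sialomucins carry dense sugar chains that line the vessel lumen, and Cd34 and Podxl are known from early vascular and blood-forming cells as well as from mature endothelium. Plvap forms the diaphragms of caveolae and fenestrae, while Stab2 and Lyve1 are best known from liver sinusoids and lymphatic vessels, which form later. Several of these proteins are not restricted to endothelium: Cd34 and Cd93 are also found on blood progenitors, Stab1 and Lyve1 on macrophages, and Podxl on podocytes and pluripotent cells.

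Promoters are shown for 4 members to set genes that were higher in the positive cells, Cd34 and Stab1, beside genes near background, Emcn and Clec14a. Each sequence runs from 250 bases before to 50 bases after the RefSeq transcription start in GRCm38.p6, on the strand of the gene. Capitals mark GGAA, the core that ETS factors bind, or its reverse complement TTCC.
Cd34, chr1:194938571-194938870, plus strand: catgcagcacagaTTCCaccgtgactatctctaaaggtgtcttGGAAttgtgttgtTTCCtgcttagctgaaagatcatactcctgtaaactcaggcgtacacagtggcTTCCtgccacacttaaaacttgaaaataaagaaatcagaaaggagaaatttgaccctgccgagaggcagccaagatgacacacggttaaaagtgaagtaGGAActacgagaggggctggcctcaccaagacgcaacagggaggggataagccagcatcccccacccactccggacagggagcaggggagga
Stab1, chr14:31168592-31168891, minus strand: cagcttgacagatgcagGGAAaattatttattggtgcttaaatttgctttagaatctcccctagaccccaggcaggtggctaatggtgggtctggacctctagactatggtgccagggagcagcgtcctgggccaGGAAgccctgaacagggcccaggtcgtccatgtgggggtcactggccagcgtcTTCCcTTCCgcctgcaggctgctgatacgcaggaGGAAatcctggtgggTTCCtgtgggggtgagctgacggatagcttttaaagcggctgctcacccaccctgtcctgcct
Emcn, chr3:137340828-137341127, plus strand: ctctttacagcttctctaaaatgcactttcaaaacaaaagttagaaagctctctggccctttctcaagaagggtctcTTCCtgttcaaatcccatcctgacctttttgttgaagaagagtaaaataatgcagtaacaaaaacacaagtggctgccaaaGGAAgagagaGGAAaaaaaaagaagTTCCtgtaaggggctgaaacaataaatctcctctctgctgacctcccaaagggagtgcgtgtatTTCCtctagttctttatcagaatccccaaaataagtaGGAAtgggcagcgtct
Clec14a, chr12:58269209-58269508, minus strand: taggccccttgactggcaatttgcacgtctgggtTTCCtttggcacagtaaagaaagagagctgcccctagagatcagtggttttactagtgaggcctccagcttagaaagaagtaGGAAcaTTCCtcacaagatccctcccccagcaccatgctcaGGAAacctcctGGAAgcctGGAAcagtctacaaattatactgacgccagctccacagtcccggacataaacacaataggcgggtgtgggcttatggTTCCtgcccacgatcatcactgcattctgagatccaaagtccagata
The Cd34 sequence held 5 matches to the GGAA core on both strands together, that of Stab1 and that of Emcn 6 each, and that of Clec14a 7. The core was present in 96.0% of all 32851 RefSeq promoters of this length, with a median of 3 matches, and 28.6% held at least 5. The longer forms AGGAAG and CGGAAG, which contain the core, were found in 35.4% and 16.9% of promoters. AGGAAG occurred 2 times in Emcn, 1 time each in Cd34 and Stab1 and not in Clec14a. CGGAAG occurred 1 time in Stab1 and not in the other 3, and CCGGAAGT, present in 3.89% of promoters, in none of the 4. At least 6 core matches were held by 15.7% of promoters and at least 7 by 8.02%. Stab2, the other member with a promoter entry, also held 6. These promoters are too few to compare the genes near background with the genes that were higher, which was not tested. A match is a description of the letters in this window.

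Expression values are log2 units from RMA, which combines the background-corrected and normalized probes into 1 value per probe set. A difference is the mean of the Etv2-Venus positive arrays less that of the negative arrays, with the standard error (SE) of the limma fit over all genes. The array medians lay between 5.46 and 5.52, and the number of arrays limits the precision. With 2 arrays per group an exact permutation test of 1 gene cannot go below p = 0.333, so limma, which borrows information on the spread from all genes, was used, with p-values adjusted over the 18193 genes. The background level was set from 39 olfactory receptor genes, which these cells are not expected to express. Their median was 3.66 and the highest of them 5.70. The 95th percentile, 4.83, was taken as the level below which a probe set is called near background. Probe sets bind with different strength, so the order of genes by signal is not an order of transcript number. As a check of the sort, Etv2 measured 12.03 and 11.87 on the negative and 12.64 and 12.41 on the positive arrays, and Kdr 12.51 and 12.68 against 12.64 and 12.81. Etv2 signal was thus high in both populations and a little higher in the positive cells, and Kdr overlapped.

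**Figure D1:**
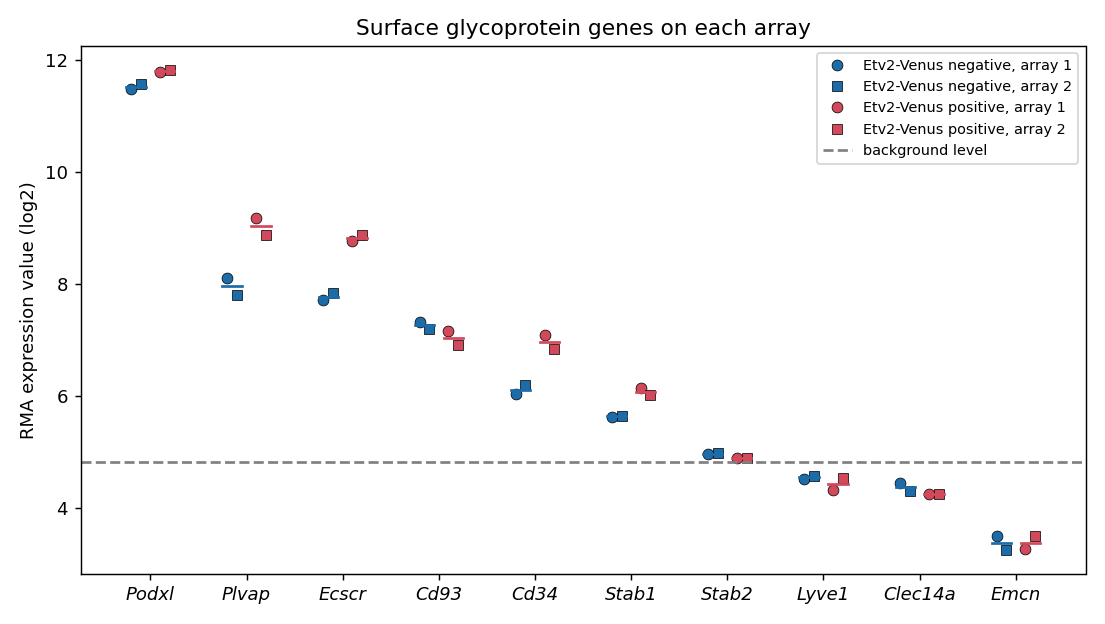
RMA expression value (log2, vertical axis) of the 10 surface glycoprotein genes (horizontal axis, ordered by mean) on each array, with short lines at the group means and a dashed line at the background level of 4.83. Podxl lies near 11.66 in the mean of the 4 arrays, Plvap, Ecscr, Cd34 and Stab1 show the positive arrays above the negative ones, and Lyve1, Clec14a and Emcn lie below the line.

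Of the sialomucins, Podxl gave the strongest signal and the smallest difference among the 5 genes that were higher in the positive cells. Podxl, which keeps cell surfaces apart and opens lumens, measured 11.48 and 11.57 on the negative and 11.78 and 11.82 on the positive arrays. The 2 groups did not overlap. The difference was 0.28 (SE 0.09, 1.21-fold, n = 2 arrays per group) and did not pass (limma adjusted p = 0.347). A second Podxl probe set, 1417396_at, read 6.47 and 6.07 against 6.53 and 6.54, a difference of 0.26 (SE 0.17). Its 95% interval ran from -0.18 to 0.71, with 0.06 between the arrays numbered 1 and 0.47 between those numbered 2. The mean difference was thus close to that of the kept probe set, at very different signal, but was uncertain. In the Etv2-Venus negative cells the signal of the kept probe set was already at the 95.4 percentile of all genes, as a description of signal and not of transcript number.

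Cd34, a sialomucin of blood progenitors and vessel walls, was above background in the negative cells, at the 45.1 percentile of genes, and higher in the positive cells. It measured 6.03 and 6.19 on the negative and 7.09 and 6.85 on the positive arrays, with no overlap. The difference was 0.86 (SE 0.13, 1.81-fold, n = 2 arrays per group; limma adjusted p = 0.106), and its 95% interval ran from 0.52 to 1.19. Between the arrays numbered 1 the difference was 1.06 and between the arrays numbered 2 it was 0.66, so Cd34 had the widest gap between the numbers among the genes that were higher. Cd34 stood at rank 187 of all genes, counted from the highest difference.

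Emcn, endomucin, a sialomucin of capillary and venous endothelium, was near background on every array. It read 3.50 and 3.26 on the negative and 3.27 and 3.50 on the positive arrays, at the 9.76 percentile of genes. The group means were both 3.38, with a difference of 0.00 (SE 0.14; limma adjusted p = 1) and a 95% interval from -0.37 to 0.37. A low signal on 1 probe set does not show that the transcript is absent. The sialomucins were therefore spread over the whole range of the array, and only Cd34 among the 3 had a difference above 0.5.

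Plvap and Ecscr were the members with the largest differences and the only ones past 2-fold. Plvap measured 8.11 and 7.81 on the negative and 9.18 and 8.88 on the positive arrays. Array 1 was the higher of the pair in both populations, by 0.30 and 0.29, and the groups did not overlap. The difference was 1.07 (SE 0.16, 2.10-fold, n = 2 arrays per group; limma adjusted p = 0.107), with 1.06 between the arrays numbered 1 and 1.07 between the arrays numbered 2. Ecscr, a transmembrane protein of endothelial cells that acts in their migration, measured 7.71 and 7.84 against 8.77 and 8.88, again with no overlap. Its difference of 1.05 (SE 0.10, 2.07-fold) had a smaller error, and its limma adjusted p of 0.0670 equalled the smallest of any gene on the array, shared by 66 genes. At least 2-fold higher were 2 of the 10 members, against 0.599% of all genes tested. As the members were chosen with earlier results known, this is a description. Plvap and Ecscr held ranks 79 and 83 of 18193. Ecscr was called higher where limma used a mean-variance trend and a robust variance estimate (adjusted p = 0.0391), a setting that called 0.445% of genes higher and 0.17% lower, and where the test was limited to genes averaging 6 or more (adjusted p = 0.0429), which called 0.648% of 10179 genes higher and 0.128% lower. With the array number as a further term beside the trend, Ecscr, Plvap and Podxl were called, in a setting that called 3.39% of genes higher and 1.98% lower.

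**Figure D2:**
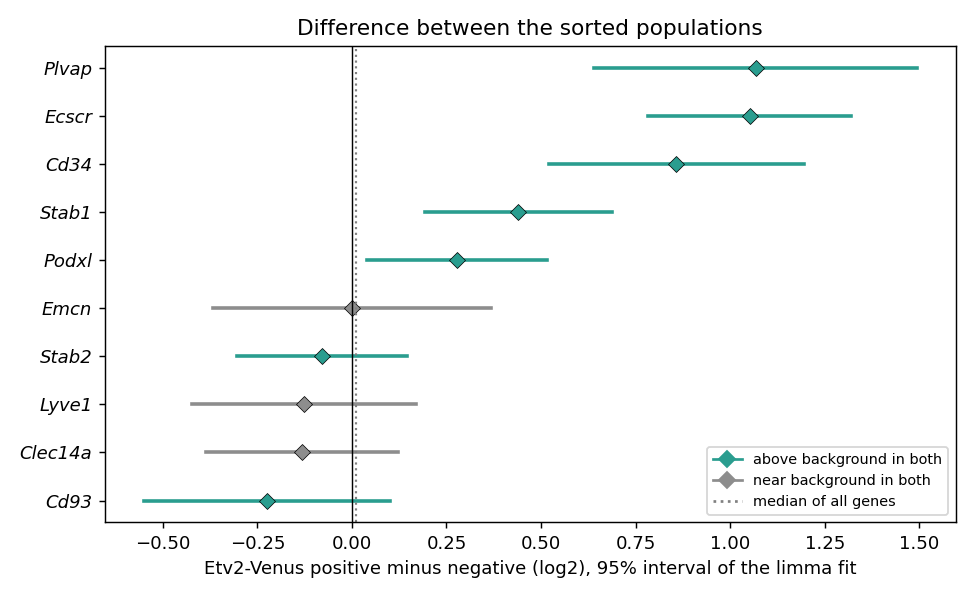
Difference between the populations (log2, horizontal axis) for each of the 10 genes, with the 95% interval of the limma fit, not adjusted for the number of genes, coloured by whether signal was above background. The intervals of Plvap, Ecscr, Cd34, Stab1 and Podxl lie above 0, and those of the other 5 genes include 0.

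The pair of C-type lectin domain proteins gave no higher signal in the positive cells. Cd93, a receptor of endothelial and early blood cells that binds the matrix protein Mmrn2, measured 7.32 and 7.20 on the negative and 7.16 and 6.91 on the positive arrays. The positive arrays lay just below the negative ones. The difference was -0.23 (SE 0.12, 1.17-fold lower, n = 2 arrays per group) and did not pass (limma adjusted p = 0.593). Leaving out positive array 2 gave -0.10, leaving out positive array 1 gave -0.35, and the difference was -0.09 as the mean over its 5 probe sets. Its 95% interval, from -0.55 to 0.10, does not reach the differences of Cd34, Plvap or Ecscr. A second Cd93 probe set, 1419589_at, gave 7.23 and 6.70 against 6.94 and 6.46, a difference of -0.27 (SE 0.26) with overlapping groups. The other 3 Cd93 probe sets were near background, with means from 3.74 to 4.10 and differences from -0.05 to 0.07.

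Clec14a, a lectin domain protein of vessels that also binds Mmrn2, was near background. It read 4.45 and 4.32 on the negative arrays against 4.25 and 4.25, a difference of -0.13 (SE 0.10; limma adjusted p = 0.709), and its other probe set, 1419468_at, read 2.49 and 2.72 against 2.69 and 2.83. The signs of the 2 probe sets were opposite. Their ligand Mmrn2, in contrast, read 6.61 and 6.65 on the negative arrays against 8.02 and 7.81, a difference of 1.28 (SE 0.11; limma adjusted p = 0.0670). Of the other proteins of the same lectin group, Thbd was at 6.16 ± 0.27 in negative and 6.56 ± 0.17 in positive cells (SD, n = 2), which differ by 0.39 (SE 0.17). Cd248 was at 7.08 ± 0.11 and 6.73 ± 0.28 (SD, n = 2), which differ by -0.35 (SE 0.16).

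Of the scavenger and hyaluronan receptors, Stab1 was above the background level and higher in the positive cells, while Stab2 and Lyve1 were at or near background. Stab1, a receptor that clears modified proteins, measured 5.63 and 5.65 on the negative and 6.14 and 6.02 on the positive arrays, with no overlap. Both negative values lie below the highest of the olfactory receptor genes, at 5.70, so signal in the negative cells is uncertain. The difference was 0.44 (SE 0.09, 1.36-fold, n = 2 arrays per group; limma adjusted p = 0.173), on a probe set not far above background, where differences are compressed. Stab2, the hyaluronan receptor of sinusoids, read 4.97 and 4.98 against 4.89 and 4.89, which is only just above the level of 4.83 and below the array medians. Its difference was -0.08 (SE 0.09; limma adjusted p = 0.826). It was the member closest to the background level from above, and Lyve1 the closest from below.

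Lyve1, the hyaluronan receptor of lymphatic endothelium, was near background on both of its probe sets, which disagreed in sign. The kept probe set read 4.52 and 4.58 on the negative arrays against 4.32 and 4.54, a difference of -0.13 (SE 0.11; limma adjusted p = 0.779). The other, 1429379_at, read 4.09 and 3.84 against 4.46 and 4.49, a difference of 0.51 (SE 0.12) with no overlap, fitted over every probe set (limma adjusted p = 0.356). All 8 of these values lie below 4.83, so neither reading shows Lyve1 above background.

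**Figure D3:**
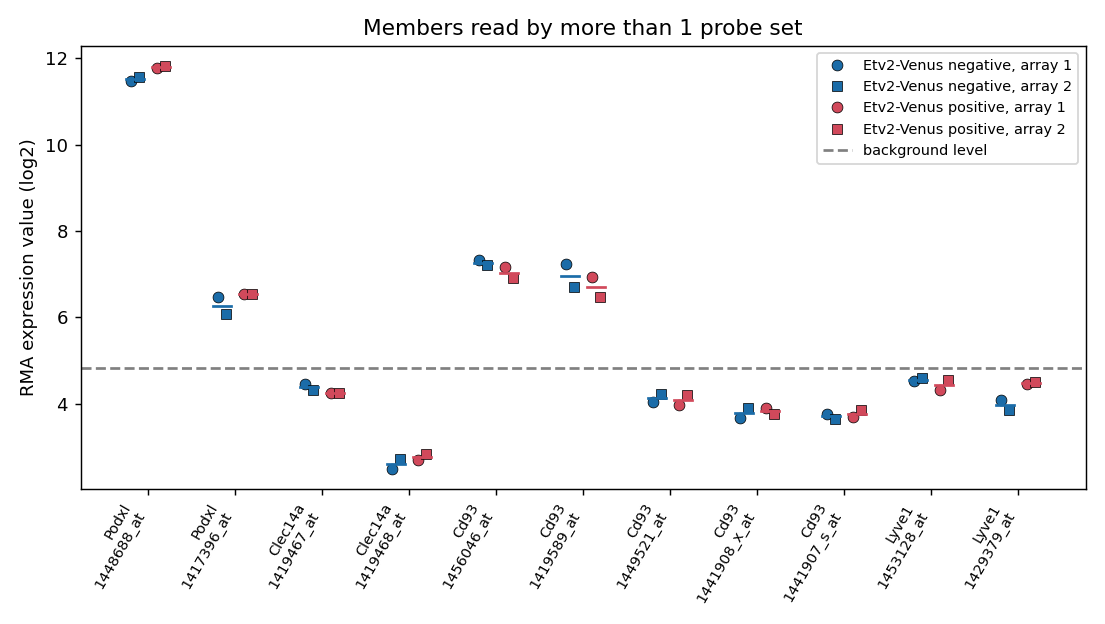
RMA expression value (log2, vertical axis) on each array for the 11 probe sets of the 4 members read by more than 1, with short lines at the group means and a dashed line at the background level of 4.83. Both Podxl probe sets and 2 of the 5 for Cd93 lie above the line, and those of Clec14a and Lyve1 lie below it.

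Counted over the 10 members, 5 had positive arrays above both negative arrays, against 22.4% of all genes, 3 had them below, against 17.0%, and 2 overlapped. The 5 higher members were Podxl, Cd34, Plvap, Ecscr and Stab1, and each had an unadjusted limma p under 0.05, against 7.07% of all genes higher at that level. No member was lower at that level, against 4.64%. With earlier results known when the members were chosen, these shares are descriptions. After adjustment 0 members and 0% of all genes were called in either direction. The median difference over the 10 members was 0.14, and over all genes tested it was 0.01. Over all genes 67.8% were above background in both populations and 30.3% near background in both, so the 3 members near background are about the share of the array.

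**Figure D4:**
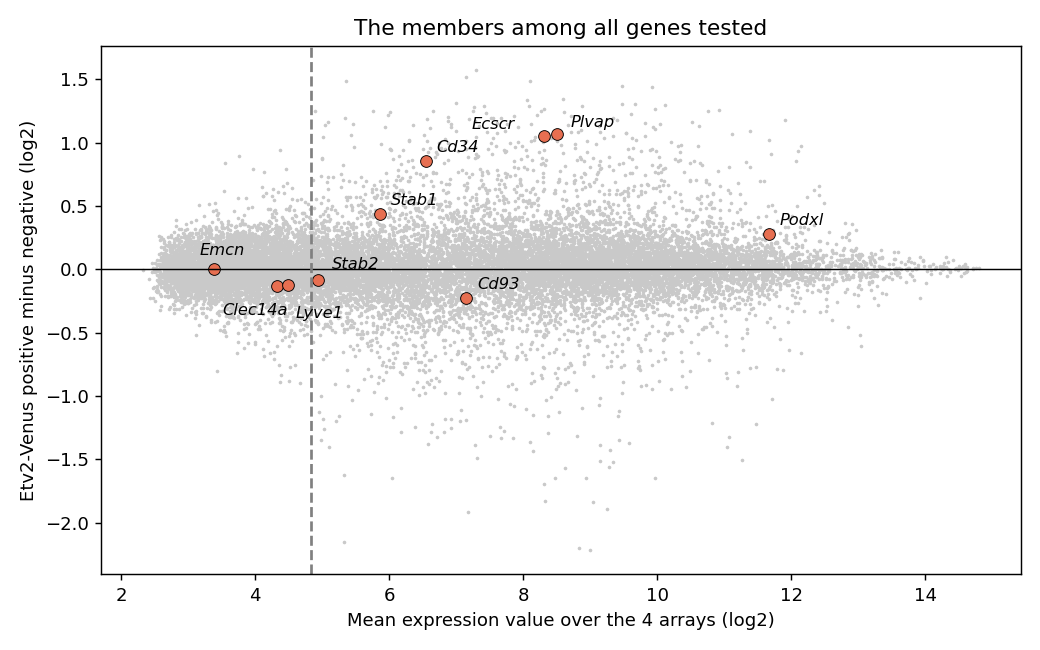
Difference between the populations (log2, vertical axis) against the mean over the 4 arrays (log2, horizontal axis) for all 18193 genes in grey and the 10 members in orange, with a dashed line at the background level of 4.83. Plvap, Ecscr and Cd34 stand near the upper edge at middle signal, Podxl far to the right, and Emcn, Clec14a and Lyve1 left of the line.

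Partners of the members were read next. Of the podocalyxin linkers and mucin glycan enzymes, 15 genes, 4 had positive arrays above and 2 below the negative arrays, beside 22.4% and 17.0% of all genes, with a median of 0.07. Msn, which links surface proteins to actin, measured 11.40 ± 0.05 and 11.89 ± 0.03 (SD, n = 2), a difference of 0.50 (SE 0.09; limma adjusted p = 0.139). Slc9a3r1, a scaffold that binds the tail of Podxl, differed by -0.71 (SE 0.16), and C1galt1c1, a chaperone of mucin glycosylation, by 0.31 (SE 0.10). Slc9a3r2, of the same list, was apart in the higher direction, at 0.19 (SE 0.09). These counts are close to the shares of the whole array, as are those of 9 other sialomucins and adhesion mucins, of which 2 were apart in each direction, with a median of -0.04. Mcam, an adhesion protein of endothelium, measured 7.02 ± 0.08 and 7.76 ± 0.04 (SD, n = 2), a difference of 0.74 (SE 0.10; limma adjusted p = 0.0885), and Cd24a differed by -0.29.

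Caveola genes, which share structures with Plvap, had a median of 0.12 over 6 measured genes, of which 3 were apart in the higher direction, against 22.4% of all genes, and 0 in the lower, against 17.0%. None had an unadjusted limma p under 0.05. Cavin1 measured 7.24 ± 0.28 and 7.56 ± 0.00 (SD, n = 2) and Cav2 6.73 ± 0.31 and 7.16 ± 0.27. Cav1 read 7.00 and 5.98 on the negative and 7.01 and 5.83 on the positive arrays, so it was over 1 log2 unit apart between the array numbers, while its difference between the populations was -0.07 (SE 0.52). Of 14 hyaluronan and scavenger genes, 5 were apart in the higher direction, against 22.4% of all genes, and 1 in the lower, against 17.0%, with a median of 0.01. Hmmr, a hyaluronan-binding protein that also acts on the mitotic spindle, measured 8.99 ± 0.03 and 10.06 ± 0.01 (SD, n = 2), a difference of 1.07 (SE 0.09; limma adjusted p = 0.0670). The scavenger receptors Scarf1 and Scarb1 differed by 0.94 (SE 0.18) and 0.64 (SE 0.14), and the hyaluronan synthases Has1 and Has2 by 0.36 (SE 0.09) and -0.34 (SE 0.09).

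Every early endothelial marker measured was higher on both positive arrays than on both negative arrays. Over all genes this held for 22.4%. These 10 genes were all above background in both populations and had a median difference of 1.01, beside 1.07 for Plvap, 1.05 for Ecscr and 0.86 for Cd34. Pecam1, an adhesion protein that defines endothelium, was dim, at 5.28 ± 0.08 in negative and 5.85 ± 0.29 in positive cells (SD, n = 2). Esam, a junction adhesion protein, and Egfl7, a secreted vascular protein, differed by 1.07 (SE 0.10) and 0.97 (SE 0.09), each at a limma adjusted p of 0.0670, and the receptor Tie1 by 1.01 (SE 0.11). Tek, the angiopoietin receptor, measured 7.92 ± 0.12 and 9.27 ± 0.22 (SD, n = 2), a difference of 1.34 (SE 0.14; limma adjusted p = 0.0698), and Cdh5, the cadherin of endothelial junctions, differed by 0.98 (SE 0.15). Of the 13 measured genes of the mature, sinusoidal and lymphatic list, 5 were apart in the higher direction, against 22.4% of all genes, and 3 in the lower, against 17.0%, with a median of 0.03, and Vwf, Sele and F8 were near background in both populations by their means, although Vwf read 5.42 on 1 of the positive arrays. Oit3 and Nos3, known from sinusoids and from arterial endothelium, differed by 1.24 (SE 0.11) and 1.04 (SE 0.09), each at a limma adjusted p of 0.0670, Icam1, an adhesion protein, by 0.64 (SE 0.12), and Pdpn, a mucin-type protein of lymphatics and mesothelium, by -0.41 (SE 0.11). Prox1, a regulator of lymphatic fate, read 5.10 and 6.82 on the negative and 5.98 and 7.55 on the positive arrays, a spread between the array numbers that exceeded its difference of 0.80 (SE 0.77).

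Markers of other cells that carry members were followed beside them, and their part in the members' differences was not tested. Of 12 macrophage markers, relevant to Stab1, Lyve1 and Cd93, 7 were near background, against 30.3% of all genes, among them Adgre1, Itgam, Cd14 and Ptprc. The other 5, Csf1r, Cd68, Lyz2, Mrc1 and, just above background, Fcgr1, gave signal in both populations. The list's summed level, in linear RMA units, was 420.0 to 443.2 in the negative and 518.7 to 577.7 in the positive cells. Mrc1, which sinusoidal endothelium also expresses, had the largest difference of the list, at 0.76 (SE 0.13), and made up 34.7% to 52.1% of that sum. Without Mrc1 the sum was 289.5 and 249.6 on the negative and 276.7 and 268.0 on the positive arrays, which overlap. Of the 12 macrophage markers 3 were apart in the higher direction, against 22.4% of all genes, and 1 in the lower, against 17.0%. Of 10 blood progenitor markers, relevant to Cd34, 7 were apart in the higher direction, against 22.4% of all genes, and 1, Ptprc, in the lower, against 17.0%. The summed level was 3925 to 4106 in the negative and 6851 to 7419 in the positive cells. Ptprc and Cd48 were near background. Itga2b, Kit and Myb, with signal above background in both populations, differed by 0.70 (SE 0.11), 0.66 (SE 0.10) and 0.47 (SE 0.11). Tal1, a regulator shared by blood and endothelium, measured 11.15 ± 0.13 and 12.17 ± 0.18 (SD, n = 2) and made up 54.5% to 67.9% of that sum, which without it was 1678 and 1786 on the negative and 2381 and 2609 on the positive arrays. Pluripotent markers, relevant to Podxl, summed to 2365 to 2380 in the negative and 1460 to 1775 in the positive cells, but Klf4, whose arrays overlapped between the populations, made up 57.7% to 79.0% of that sum. Without Klf4 the sum was 1000 and 615.5 against 574.8 and 372.9. Of the 8 markers 2 were apart in the lower direction, against 17.0% of all genes, and 0 in the higher. The 2 were Pou5f1 at -1.15 (SE 0.38) and Sox2 at -0.71 (SE 0.29), both above background in both populations, and Zfp42 and Dppa3 were near background. Podocyte markers summed to 186.0 to 223.8 and 192.1 to 223.0, with 1 of 4 near background. OP9 feeder and stromal markers summed to 1641 and 948.0 on the negative and 1352 and 702.1 on the positive arrays, higher on the arrays numbered 1. Col1a2 carried that gap, and without it the sum was 605.2 and 607.5 on the negative against 466.7 and 452.6 on the positive arrays. Of the 9 measured stromal markers 3 were apart in the lower direction, against 17.0% of all genes, and 0 in the higher, namely Cxcl12 at -0.63 (SE 0.11), Col1a1 at -0.54 (SE 0.18) and Vcam1 at -0.33 (SE 0.10), and Lum and Postn were near background in both populations. The 6 mesoderm markers were all apart in the lower direction in the positive cells, against 17.0% of all genes, with a median of -1.56. In sorted bulk RNA, more cells of a type and more transcript per cell cannot be told apart.

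**Figure D5:**
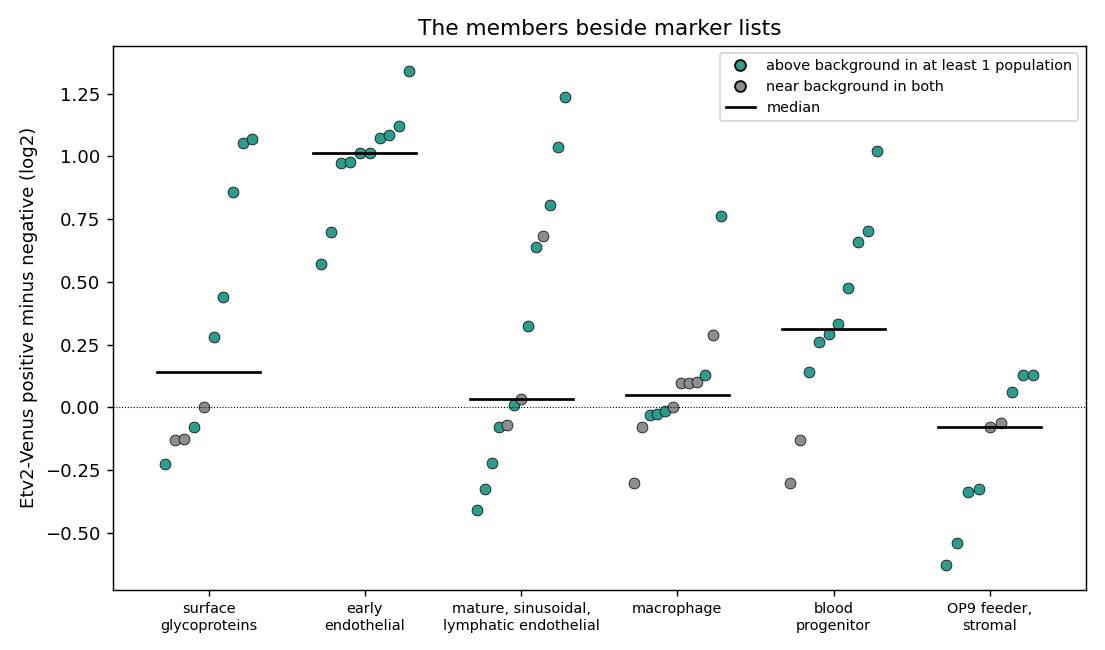
Difference between the populations (log2, vertical axis) for each gene of the 10 members and of 5 marker lists (horizontal axis), coloured by signal, with a line at each list's median. The early endothelial genes all lie above 0 with a median of 1.01, while the members and the mature, sinusoidal and lymphatic genes spread from below 0 to above 1.

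The genes whose pattern over the 4 arrays was closest to that of the extreme members were found by Euclidean distance after centring each gene on its mean, among 10179 genes with a mean of at least 6. Nearest to Plvap, the member with the largest difference, were Icam2, an adhesion protein of endothelium (distance 0.09, difference 1.08), Tal1 (0.10 and 1.02) and Kif18b, a kinesin of dividing cells (0.10 and 1.04). Nearest to Cd93, the member with the most negative difference among those above background, were Cacna2d1, a calcium channel subunit (0.01 and -0.24), Lss, an enzyme of sterol synthesis (0.03 and -0.24), and Bsg, a widely expressed membrane glycoprotein (0.03 and -0.25). This likeness rests on 4 arrays.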

How the data were processed

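RNA of 4 samples of sorted cells was measured on an Affymetrix 3' expression array. The authors deposited RMA values on a log2 scale, 1 per probe set, and the submitters' processing notes name RMA and R 2.8.0. Log2 was inferred from the range, 2.16 to 14.93. RMA sets all arrays to a common distribution, which removes any change shared by all genes. No detection calls were used.

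Groups and array numbers came from the sample titles. Symbols came from the platform annotation, checked by Entrez identifier against the RefSeq genes of GRCm38.p6 (34741 of 34945 probe sets with 1 symbol matched, 0 symbols changed), and 932 probe sets had several symbols. Promoters came from RefSeq, with entries for 5 of the 10 members. The populations were compared with limma 3.58.1 in R 4.3.3, group as the only term, two-sided, 2 residual and 2.68 prior degrees of freedom, with Benjamini-Hochberg adjustment over 18193 genes and a threshold of 0.05. The script was checked on simulated data.

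The members, lists and tests were chosen with earlier results of these data known. All members were named, with up to 4 genes of smallest p per list, 3 nearest genes for each of 2 members, and genes that stand beside a member's result. Pecam1, Cdh5, Has2, Cav1, Vwf, Prox1 and Col1a2 are outside the ranking by p, and they and Klf4 were chosen after their values were seen. The same holds for genes named for their level relative to background, such as Sele, F8, Lum, Postn, Cd48, Adgre1, Csf1r, Zfp42 and Dppa3. Not every gene within the ranking was named. Listed genes with no match among the genes tested were not used here. The alternatives were every probe set, the mean over probe sets, a filter on dim genes, a variance trend, 2 normalizations, the array number as a block with and without the trend, and leaving out each array. Figures were drawn with matplotlib 3.10.9.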

Additional observations from a re-analysis of the deposited data

How the results depend on the processing

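With the main settings 0 members were called in either direction. 1 member, Ecscr, was called higher among genes with a mean of at least 6, where 5 members were left with a median difference of 0.86, and 1, again Ecscr, with the variance trend. 3 members, Ecscr (adjusted p = 0.0142), Plvap (0.0133) and Podxl (0.0438), were called higher with the replicate block together with the trend. No member was called lower in any of the 12 alternatives. Over all genes limma called 0 with the main settings, 66 higher and 13 lower with the filter, 81 and 31 with the trend, and 616 and 361 with the block and trend. The replicate block alone called 0 members and 0 genes. The array numbers are not stated to pair the samples. The differences between arrays 1 and 2 in the 2 populations correlated across genes at 0.54, and at 0.75 over those 10179 genes whose mean reached 6, and genes are not independent replicates. Cd34, Podxl, Cd93, Plvap, Ecscr, Stab1 and Stab2 kept the sign of their difference in every alternative in which they were tested. Cd34 ran from 0.73 to 0.98 (adjusted p from 0.0525 to 0.459), Plvap from 0.92 to 1.22, Ecscr from 0.99 to 1.12 and Cd93 from -0.35 to -0.09. When a gene's probe sets were averaged, Clec14a turned to 0.0093 and Lyve1 to 0.19, as the other probe set of each has the opposite sign. Leaving out each array sets 1 array against 2, with the spread taken from the group that keeps 2, and as the full fit called 0 members, the 0 called then says nothing of stability. With 1 array left out, the median difference over the members ran from 0.09 to 0.21. With the mean over probe sets that median was 0.23. Near background the size of differences is uncertain.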

Other observations

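Emcn had the same mean in both populations to within 1e-06 log2 units, although its arrays differed by 0.24 within each. The same equality was seen for 41 of 18193 genes, 0.225%, and among the listed genes for Cd14 and Msr1. The cause was not tested.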
